A study of Rattus norvegicus with 2 samples.

Results

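The 7 subunits of respiratory complex I that are encoded by mitochondrial DNA, Nd1, Nd2, Nd3, Nd4, Nd4l, Nd5 and Nd6, were followed in left ventricular (LV) tissue of Dahl salt-sensitive (DS) rats. They were chosen by gene, each with 1 Ensembl ID (ENSRNOG00000030644, ENSRNOG00000031033, ENSRNOG00000033615, ENSRNOG00000029707, ENSRNOG00000031053, ENSRNOG00000029971 and ENSRNOG00000029042, in this order), and all 7 had a spot on the array, out of 20174 genes. DS rats become hypertensive on a high-salt diet and develop LV hypertrophy and then heart failure. RNA of 3 male rats per group, taken at the stage of heart failure, was mixed into 1 pool each for the control group [NS (−), 0.3% NaCl, no drug], the heart failure group [HS (−), 8% NaCl, no drug] and the group treated with chaetocin, an inhibitor of histone H3K9 methyltransferase [HS (ch+), 8% NaCl; 0.25 mg/kg intraperitoneally, 2 times per week between the ages of 6 and 13 weeks]. Whether the untreated rats received the solvent DMSO is not given in the sources used here. On array 1 the HS (−) pool carried the red dye Cy5 and the NS (−) pool the green dye Cy3. Array 2 set the same HS (−) pool in Cy5 against HS (ch+) RNA in Cy3.

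Complex I oxidizes NADH, passes the electrons to ubiquinone and pumps protons across the inner mitochondrial membrane. Its mitochondrially encoded subunits form the core of the membrane arm: Nd2, Nd4 and Nd5 are antiporter-like and belong to the proton-pumping part, Nd1 helps to form the site where ubiquinone binds, and the small subunits Nd3, Nd4l and Nd6 lie between Nd1 and Nd2. The genes are transcribed as long polycistronic precursors that are cut into single messages, Nd6 from the opposite DNA strand to the other subunits, while Nd4l and Nd4 stay together on 1 message. The heart muscle depends on this pathway for most of its ATP. Nd3 is in the study's list of genes that were low in HS (−) and higher with chaetocin, a list chosen on these same arrays, so its ratios are a description. The question was whether the other 6 subunits moved with it.

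Each comparison rests on 1 array with 1 spot per gene and no dye swap, so there was no replicate to test against, and the precision of the values is limited by the number of arrays. The HS (−) pool was read 2 times in Cy5, once on each array, and over the 4127 genes whose HS (−) signal reached 100 both times the log2 difference of these readings had an SD of 0.16, a 1.12-fold difference. This SD serves as the technical yardstick below and does not contain the differences between rats. Both readings are in Cy5, so the SD holds no difference between the dyes. It is also not the error of a ratio or of a product of ratios. HS (−) carried Cy5 on both arrays, so dye and group cannot be told apart within an array or by setting the 2 arrays side by side. A dye difference of a probe would enter both ratios, in opposite directions. In pooled tissue fewer cardiomyocytes and less RNA per cell cannot be told apart. The cardiomyocyte marker Myh6 was bright in every channel, with signals from 11788 to 65487, the latter from a saturated spot. Of 21 marker genes of heart cell types, 4 could be matched to an ID, and all 4 belong to the study's list, which holds genes with the direction of Nd3 only.

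Nd3 had the largest difference of the 7 subunits in both comparisons. Its signal, the spot intensity minus the mean of the blank spots, was 28349.8 in NS (−) and 10859.5 in HS (−) on array 1, and 13615 in HS (−) and 34110 in HS (ch+) on array 2. Both HS (−) readings lay below the NS (−) and the HS (ch+) reading, as in every other subunit except Nd4. These signals are not centered, and the median log2 ratio of Cy3 to Cy5 was 0.17 on array 1 and 0.38 on array 2. After centering on the median of each array, the HS (−)/NS (−) ratio of Nd3 was 0.431 and its HS (ch+)/HS (−) ratio was 1.93. Only 0.533% of the 4127 genes had a lower HS (−)/NS (−) ratio, and 99.8% had a lower HS (ch+)/HS (−) ratio. The 2 HS (−) readings of Nd3 differed by 1.13-fold, slightly more than the yardstick. When the HS (−) readings of the arrays were exchanged, the ratios of Nd3 were 0.488 and 2.19. The 4 matched cell type markers had ratios in the same direction, which was fixed by the limits of the study's list they come from. The ratios were 0.202 and 1.59 for Myh6 of cardiomyocytes, whose NS (−) spot was saturated, 0.436 and 1.96 for Col15a1 of fibroblasts, 0.431 and 1.78 for Ca4 of endothelial cells, and 0.363 and 1.85 for Cd74 of leukocytes. The part of these cell types in the values of Nd3 and the other subunits was not tested.

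**Figure D1:**
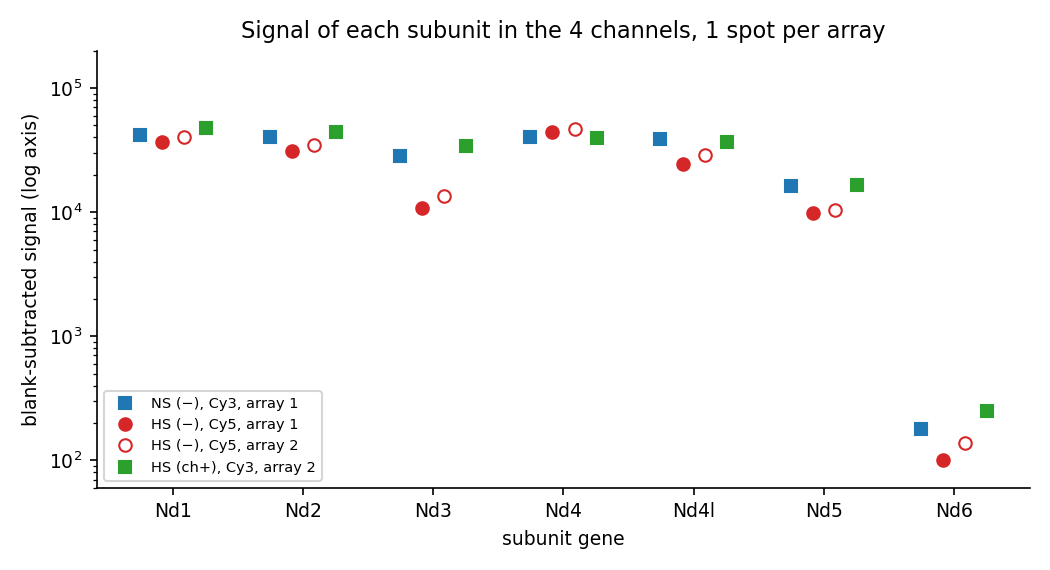
Blank-subtracted signal of the 7 subunit genes (x axis) in the 4 channels of both arrays (y axis, log scale, arbitrary units), with 1 point per spot: squares are Cy3 and circles are Cy5, and the open circle is the repeat of HS (−) on array 2. Points should be compared within a gene only. For every subunit except Nd4 both HS (−) points sit below NS (−) and HS (ch+), in signals that are not centered between the dyes.

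No other subunit passed the limits that the study used for its list. The limit of 0.5 for HS (−)/NS (−) was passed by 1 of 7 subunits, Nd3, and by 1.38% of the 4127 genes. The limit of 1.4 for HS (ch+)/HS (−) was passed by 1 of 7, again Nd3, and by 5.86% of the genes. Nd3 had to pass both limits, because the study chose its list by them on these same arrays. In the opposite direction, 0 of 7 had an HS (−)/NS (−) ratio over 2, against 4.17% of the genes, and 1 of 7, Nd4, had an HS (ch+)/HS (−) ratio under 0.714, against 4.6%. Without Nd3, the median ratios of the other 6 were 0.787 and 0.980, and the medians of all 4127 genes were 0.978 and 1.02. On the log2 scale Nd3 lay 0.86 below the median of the other 6 in HS (−)/NS (−) and 0.98 above it in HS (ch+)/HS (−).

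The small subunits stood closest to Nd3 in Nd6 and far from it in Nd4l. Nd6 was the dimmest of the spots, with a signal of 179 in NS (−) and 101 in HS (−) on array 1, and of 139 in HS (−) and 250.0 in HS (ch+) on array 2. Its HS (−) readings were below NS (−) and HS (ch+), as for every subunit except Nd4. Its ratios were 0.635 and 1.39, the second just under the limit of 1.4. The 2 HS (−) readings of Nd6 differed by 1.24-fold, more than the yardstick, as did those of Nd3 but of no other subunit. When the HS (−) readings of the arrays were exchanged the ratios of Nd6 were 0.788 and 1.72. With the local background of each spot subtracted in place of the blanks they were 0.460 and 1.83, past both limits. The share of all genes past them in that setting was not taken. This background made up 33.4% to 50.1% of the Nd6 spots. In the spots of the other subunits it made up from 8.1% (Nd4) to 39.8% (Nd3), and with it subtracted the ratios of Nd3 were 0.382 and 2.76. Nd4l had signals of 38792 in NS (−) and 24396 in HS (−) on array 1, and of 29124 in HS (−) and 36696 in HS (ch+) on array 2. It was lower in HS (−), with a ratio of 0.707, and its HS (ch+)/HS (−) ratio of 0.971 differed from 1 by less than the yardstick.

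The antiporter-like subunits differed among themselves. Nd5 followed the direction of Nd3 with smaller differences: its signal was 16383 in NS (−) and 9777 in HS (−), and 10368 in HS (−) and 16574 in HS (ch+), giving ratios of 0.671 and 1.23. Nd2 had signals of 40347 and 31125 on array 1 and of 34559 in HS (−) and 44372 in HS (ch+) on array 2. Its HS (−)/NS (−) ratio of 0.867 exceeded the yardstick by little, and its HS (ch+)/HS (−) ratio was 0.989. Nd4 went the other way in both comparisons. Its signal was 40651 in NS (−) and 43988 in HS (−) on array 1, and 46693 in HS (−) and 39494 in HS (ch+) on array 2. It was the only subunit whose HS (−) reading was the higher one on both arrays, with ratios of 1.22 and 0.652, and 2.71% of the 4127 genes had a lower HS (ch+)/HS (−) ratio.

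Nd1, at the ubiquinone site, did not differ between any of the pools by more than the yardstick. Its signals were 41936 in NS (−) and 37083 in HS (−) on array 1, and 40644 in HS (−) and 48046 in HS (ch+) on array 2. After centering, these gave ratios of 0.994 and 0.911. The raw Cy3 readings were the higher ones on both arrays, and the centering took off the median log2 ratio of Cy3 to Cy5, 0.17 on array 1 and 0.38 on array 2.

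By the yardstick, 5 of 7 subunits were lower in HS (−) than in NS (−), against 37.3% of the 4127 genes, and 1 of 7, Nd4, was higher, against 30.8%. With chaetocin, 3 of 7 (Nd3, Nd5 and Nd6) were higher than in HS (−), against 31.1% of the genes, and 1 of 7, Nd4, was lower, against 24.1%. An HS (−)/NS (−) ratio below 1 by any amount was found for 6 of 7, against 53.3% of the genes. The counts of 5, 3 and 6 include Nd3, whose directions were fixed by the limits of the study's list, so the shares are no background for it. Apart from Nd3, by the yardstick Nd2, Nd4l, Nd5 and Nd6 were lower in HS (−), and Nd5 and Nd6 were higher with chaetocin. Both comparisons contain the same HS (−) pool and are not independent of each other.

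All subunits except Nd6 were much brighter than most genes, so the shares were also taken over the 149 genes whose HS (−) signal reached 5000 both times. Of these, 1.34% had an HS (−)/NS (−) ratio under 0.5 and 13.4% a ratio over 2, and for HS (ch+)/HS (−) 3.36% lay over 1.4 and 18.8% under 0.714. By the yardstick, 40.3% were lower and 40.9% higher in HS (−) than in NS (−), and 51% were below 1 by any amount. With chaetocin 17.4% were higher and 42.3% lower than in HS (−). The 1.34% were 2 genes, Nd3 itself and Myh6 with its saturated NS (−) spot, so this share cannot serve as a background for Nd3. The HS (ch+)/HS (−) ratio of Nd3, 1.93, was the highest of the 149 genes, which include every subunit except Nd6. A low HS (ch+)/HS (−) ratio like that of Nd4 had a larger share among these bright genes than among all 4127.

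**Figure D2:**
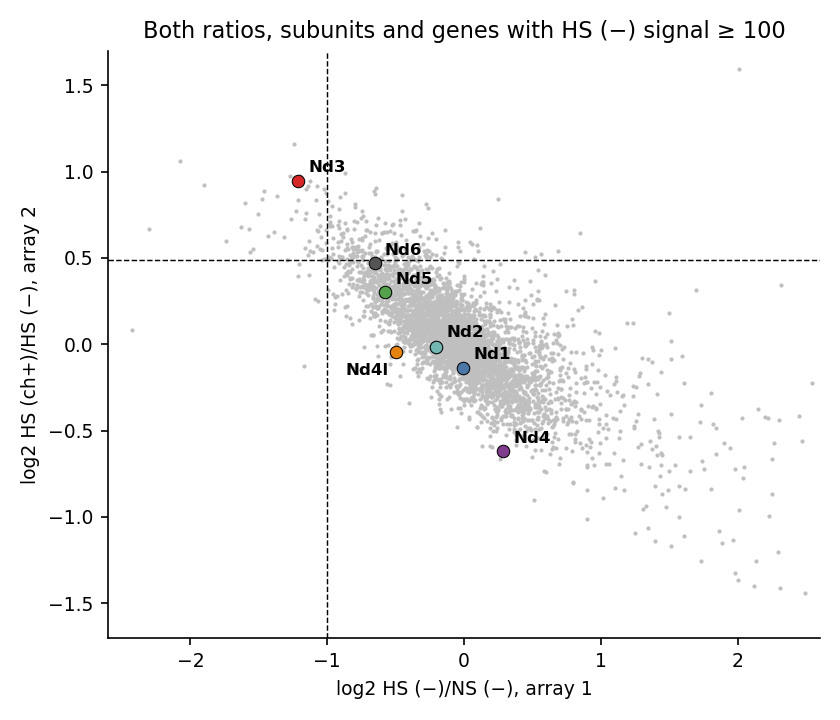
Log2 HS (−)/NS (−) ratio on array 1 (x axis) against log2 HS (ch+)/HS (−) ratio on array 2 (y axis) for the 7 subunits (colored, labelled) and the 4127 genes (grey; 44 lie outside the axes); dashed lines mark ratios of 0.5 and 1.4. Nd3 is the only subunit past both lines, Nd6 lies just under the horizontal line, and Nd4 lies at the opposite side of zero on both axes; the HS (−) pool enters both axes.

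The probes of Nd4l and Nd4, whose reading frames lie on 1 message, did not give the same result. The HS (−)/NS (−) ratio of Nd4 was 1.72 times that of Nd4l, a log2 difference of 0.78 or 4.90 times the yardstick. In HS (ch+)/HS (−) the log2 difference was -0.58. With loess normalization within blocks of the array these differences were 0.36 and -0.02. Under the other 8 ways of processing they were between 0.61 and 0.79 and between -0.74 and -0.49. Of these 8, the deposited values and the values without centering could not change the differences. The sequences of the probes were not used here, so their place on the message and their match to nuclear copies of mitochondrial DNA were not checked.

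When both ratios were multiplied, which sets the HS (ch+) pool against the NS (−) pool in the same dye, the subunits came closer together. A dye difference of a probe that is alike on both arrays drops out of this product. Its part in the closer values was not tested. The HS (ch+)/NS (−) ratio was 0.905 for Nd1, 0.880 for Nd6, 0.857 for Nd2, 0.831 for Nd3, 0.826 for Nd5, 0.792 for Nd4 and 0.686 for Nd4l. All 7 were below 1, against 52.5% of the 4127 genes, and 6 of 7, without Nd1, were below 1 by more than the yardstick, against 27.6%. Nd3 was thus next to Nd5 in this ratio, 0.01 apart on the log2 scale, whereas the nearest subunit in HS (−)/NS (−), Nd6, was 0.56 away. Among the 149 bright genes 63.1% were below 1 and 51.7% by more than the yardstick. The ratios did not stay below 1 for all subunits in other settings: of the 10 alternatives for this product, 3 left all 7 below 1, 1 left 6, 5 left 5, and Aquantile normalization left 4, with Nd1 at 1.11, Nd2 at 1.07 and Nd6 at 1.198. The 3 include the deposited values, which repeat the values reported here.

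The order of the pools therefore differed from gene to gene. For Nd3, Nd5 and Nd6 the level was highest in NS (−), intermediate in HS (ch+) and lowest in HS (−), each step beyond the yardstick. For Nd6 the log2 HS (ch+)/NS (−) ratio of -0.18 was smaller in size than the log2 difference of its own HS (−) readings, 0.31. The step between NS (−) and HS (ch+) depended on the processing for Nd6, whose HS (ch+)/NS (−) ratio was 1.36 with exchanged HS (−) readings, 1.198 with Aquantile normalization and 1.02 without centering, and for Nd3, with 1.05 after subtraction of the local background and 1.07 with exchanged readings. For Nd5 this ratio was between 0.759 and 0.962 in the 10 alternatives. For Nd2 and Nd4l it was highest in NS (−), while HS (−) and HS (ch+) did not differ beyond it. The HS (−)/NS (−) ratio of Nd2 was 1.16 without background subtraction. For Nd4 the order was HS (−), NS (−), HS (ch+), each step beyond it, but its HS (ch+)/NS (−) ratio was 1.04 with loess within blocks. For Nd1 no pair of neighbours differed beyond it.

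**Figure D3:**
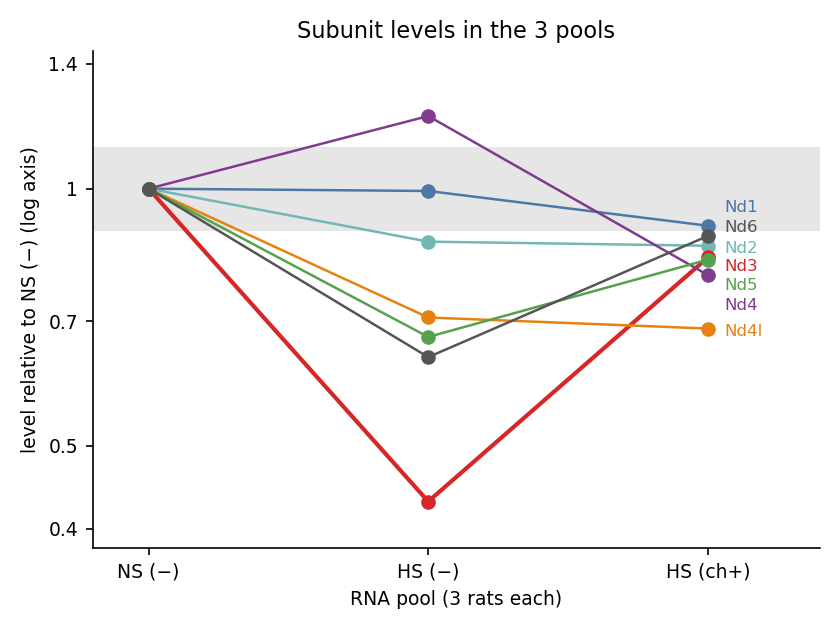
Level of each subunit relative to NS (−) (y axis, log scale) in the 3 RNA pools (x axis), from the HS (−)/NS (−) ratio of array 1 and its product with the HS (ch+)/HS (−) ratio of array 2; the grey band spans 1 SD of the repeated HS (−) readings around 1. In HS (−) the subunits spread from 0.431 (Nd3) to 1.22 (Nd4), and in HS (ch+) from 0.686 (Nd4l) to 0.905 (Nd1).

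The spots also differed in brightness. In its block of the array, every subunit except Nd6 was the brightest or second brightest on both arrays, and Nd4 ranked 5 and Nd1 ranked 8 among all genes on array 1. No subunit was saturated, but the Cy3 value of Nd1 on array 2, 48097, was close to 49210, the highest of any gene in that channel. The scans were made at 3 gains that the authors joined by least squares, and every value from 29246 up on array 1 and from 29150 up on array 2 is a whole number, while every lower one has decimals. The readings of Nd1, Nd2 and Nd4 are whole numbers in all 4 channels, those of Nd4l in 3, that of Nd3 in HS (ch+) only, and none of Nd5 and Nd6. The part of the brightness in the results was not tested.

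In 8 of the 9 other ways of processing, Nd3 was again at the lower end in HS (−)/NS (−) and at the upper end in HS (ch+)/HS (−) among the 7. The exception was loess within blocks, where its ratios were 0.779 and 1.22 and Nd6 held both places. Nd3 was the brightest spot of its block on both arrays, as were Nd1, Nd4 and Nd4l. The part of this in the exception was not tested. The HS (−)/NS (−) ratio of Nd3 was also above 0.5 without background subtraction, at 0.576. Of the 9, the deposited values repeat the values reported here, and leaving out the centering moves all genes alike. Neither could change which subunit was lowest or highest. Nd4 had the lowest HS (ch+)/HS (−) ratio in all 9, between 0.519 and 0.846, and its HS (−)/NS (−) ratio was between 1.08 and 1.62. For Nd5 and Nd6 the HS (−)/NS (−) ratio was below 1 in all 9, and for Nd6 the HS (ch+)/HS (−) ratio was above 1 in all 9, while that of Nd5 was 0.981 without background subtraction. Nd1 and Nd2 lay on either side of 1 in both ratios, depending on the setting. Nd4l reached an HS (−)/NS (−) ratio of 1.03 with loess within blocks, and its HS (ch+)/HS (−) ratio ranged from 0.773 to 1.26.

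**Figure D4:**
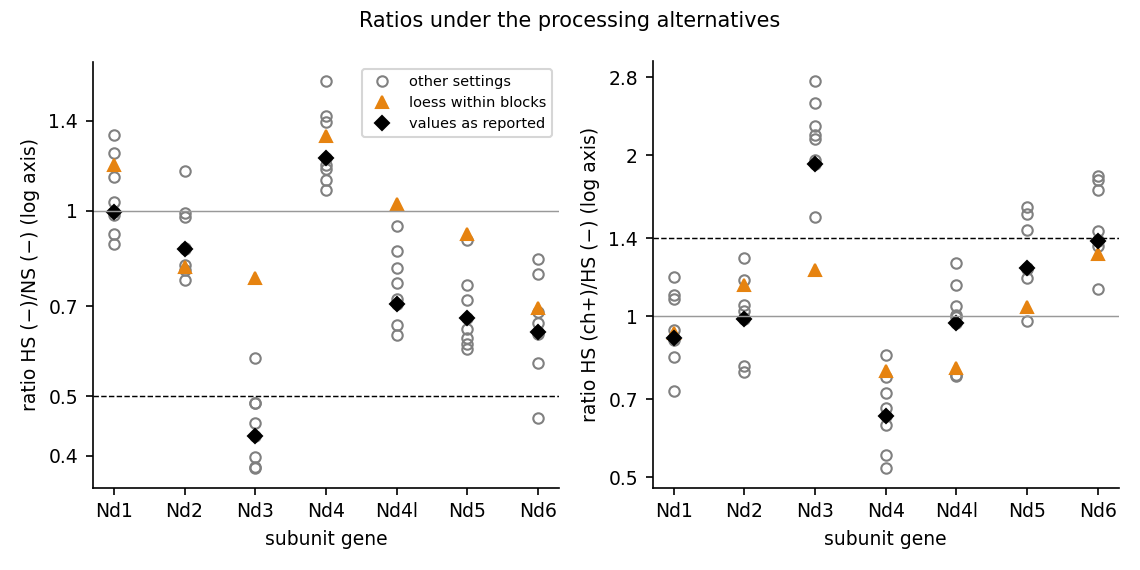
HS (−)/NS (−) ratio (left) and HS (ch+)/HS (−) ratio (right) of each subunit (y axes, log scale) as reported (diamonds), with loess within blocks (triangles) and in the 8 other settings (open circles); dashed lines mark 0.5 and 1.4. Nd3 is lowest on the left and highest on the right except under loess within blocks, where it is at 0.779 and 1.22, and Nd4 is lowest on the right in every setting drawn.

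Other genes of the pathway could be named only through the study's list. Of 70 genes listed for comparison (other mitochondrially encoded subunits, nuclear complex I subunits, assembly factors, and genes of mitochondrial DNA transcription and maintenance), 2 had an ID. Ndufs8, a nuclear-encoded iron-sulfur subunit of complex I, had ratios of 0.485 and 1.54, and Ecsit, which takes part in the assembly of complex I, had ratios of 0.426 and 1.71. Both are on that list because of these directions, so they are no independent evidence on the complex. The genes nearest to Nd3 in the plane of both log2 ratios, a likeness over only 3 pools, were the basement membrane collagen gene Col15a1 (0.436 and 1.96), Ppa2, an inorganic pyrophosphatase of mitochondria (0.414 and 1.96), and Tmem50b (0.454 and 1.89), at log2 distances of 0.03, 0.06 and 0.08, followed by a gene with a rat database number only and NP_001100071.1; all 5 are on the list too. Genes this close to Nd3 pass both limits of the list, so their place on it is no separate result. Nd6, the nearest subunit, was 0.74 away, and 209 genes other than the subunits lay closer to Nd3. The genes nearest to the median of the other 6 subunits have no name in the sources used here, the first being ENSRNOG00000009012 (0.783 and 0.977).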

How the data were processed

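LV total RNA was amplified, coupled to Cy5 or Cy3 and hybridized to 2 dual-color rat oligonucleotide arrays. The authors deposited the median intensity and the local background of each spot, scanned at 3 gains, without normalization, and a table of log2 ratios, 1 per gene and array, whose direction is not stated. Setting that table against the intensities showed log2 Cy3/Cy5. The mean of the 4553 blank spots without the highest and lowest 5% was subtracted, spots not above it by 2 SD in both channels were left out, and the ratio was centered on the array median over genes and 521 quality control spots. The recalculated values, used here, matched the deposited log2 ratios within 2.7e-05. Multiplying both ratios gave HS (ch+)/NS (−).

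The arrays list Ensembl IDs without symbols. Nd3 (ENSRNOG00000033615) is named by the study. The IDs of Nd1 (ENSRNOG00000030644), Nd2 (ENSRNOG00000031033), Nd4 (ENSRNOG00000029707), Nd4l (ENSRNOG00000031053), Nd5 (ENSRNOG00000029971) and Nd6 (ENSRNOG00000029042) were given with the choice of genes and no table at hand pairs them with names. Their spots follow the gene order of mitochondrial DNA: Nd3, Nd4l, Nd4, Nd5 and Nd6 occupy the same place (column 6, row 15) of blocks 1, 5, 9, 13 and 17, and Nd1 and Nd2 that of column 7, row 15 in blocks 41 and 45. The subunits and lists were chosen with earlier results of these data known. Genes were named by rule: all 7 subunits, listed genes with an ID, and the 5 genes nearest to Nd3 and to the median of the other 6. Of the 50 IDs named by the study, 36 were found in the RefSeq table of the GRCr8 assembly by accession. The design set no test, as each comparison has 1 array.

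Alternatives were the local background, no background subtraction, normexp (offset 50) with loess, loess on the array or within its 48 blocks, no centering, the deposited values, 50 added to each signal, exchanged HS (−) readings, Aquantile normalization, and other limits. The processing was also run on simulated arrays. These held no dye difference of single probes and no joined gains, so that run bears on neither. The tools were limma 3.58.1 in R 4.3.3, and numpy 2.4.6, pandas 2.3.3 and matplotlib 3.10.9 in Python 3.11.15.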

Additional observations from a re-analysis of the deposited data

How the results depend on the processing

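The medians over the 7 subunits were 0.707 for HS (−)/NS (−), 0.989 for HS (ch+)/HS (−) and 0.831 for HS (ch+)/NS (−), and 1 subunit, Nd3, passed each of the limits of 0.5 and 1.4. Of 61 values of these medians and counts and of the technical SD under alternatives, 36 stayed within 1 SD of the repeated readings or within 1.5 times the count and 25 moved. The 36 include values that could not move: the deposited values and a minimum signal of 100 in all 4 channels, which kept every subunit. Unless stated, the cause was not tested, and no share of all genes was taken for the counts below. With the local background subtracted, 2 subunits (Nd3 and Nd6) were under 0.5 and 3 (Nd3, Nd5 and Nd6) over 1.4. Without background subtraction the first 2 medians were 0.945 and 0.788, and 0 subunits were under 0.5. They were 0.860 and 0.839 with normexp and loess. With loess the HS (−)/NS (−) median was 0.806 and the HS (ch+)/NS (−) median 0.939, and with loess within blocks 0.916 and 0.952, with 0 subunits past either limit. Without centering the 3 medians were 0.629, 1.28 and 0.960, with 3 subunits over 1.4. With 50 added to each signal the HS (ch+)/HS (−) median was 1.17, with 3 over 1.4, and with exchanged HS (−) readings 2 were over 1.4. Aquantile normalization gave an HS (ch+)/NS (−) median of 0.962. Leaving out Nd3 left 0 subunits past either limit by construction. A limit of 0.8 took in 4 and a limit of 1.2 took in 3.

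Several settings moved all genes: the median log2 ratios of the 4127 genes shifted by 0.32 and -0.27 without background subtraction, by -0.17 and 0.38 without centering, by -0.09 and 0.24 with the local background and by -0.08 and 0.19 with 50 added. Relative to the median of all genes, the HS (−)/NS (−) ratio of Nd3 was between 0.416 and 0.493 and its HS (ch+)/HS (−) ratio between 1.82 and 2.31 in these settings and the others, except loess within blocks with 0.754 and 1.24. Of the 196 values of single subunits under alternatives, 97 moved by less than the SD, 88 by more, and 11 that had differed from 1 by more than the SD came to lie on the other side of 1. For HS (−)/NS (−) these were Nd2 at 1.16 without background subtraction and Nd4l at 1.03 with loess within blocks, and for HS (ch+)/HS (−) Nd5 at 0.981 without background subtraction. For HS (ch+)/NS (−) they were Nd2 at 1.01 with loess and 1.07 with Aquantile normalization, Nd3 at 1.05 with the local background and 1.07 with exchanged readings, Nd4 at 1.04 with loess within blocks, and Nd6 at 1.02 without centering, 1.36 with exchanged readings and 1.198 with Aquantile normalization. The SD itself was 0.15 over the 149 genes with a signal of at least 5000, a setting added after the data had been seen. Scans at the other gains were not analysed here. No paired analysis was possible because each comparison has 1 array.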
